A study of Homo sapiens with 8 samples.

Results

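The KRAB zinc finger cluster on 19p12 is a run of ZNF genes on the short arm of human chromosome 19, next to the centromere. A list of 35 genes was used, among them ZNF101 and ZNF14 at the 19p13 edge of that run, and 26 of them had a probe set that names a single gene. Where a gene had several such probe sets, the brightest on average across the 8 arrays stood for it, as for all 19775 genes measured. The other 9 (ZNF66, ZNF98, ZNF676, ZNF714, ZNF726, ZNF728, ZNF729, ZNF730 and ZNF737) had no such probe set and were not measured. The 26 measured genes were set beside the 399 other genes whose symbol is ZNF and a number.

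RNA came from 2 human breast cancer cell lines, and each of the 4 groups held 2 arrays. The groups were MDA-MB-231 with a hairpin against XBP1 (shXBP1), MDA-MB-231 with a control hairpin (shCtrl), T47D with shXBP1 and T47D with shCtrl. MDA-MB-231 is an oestrogen receptor-negative line with mesenchymal traits, and T47D is a luminal, oestrogen receptor-positive line. XBP1 encodes a factor that switches on genes of the unfolded protein response, which adjusts the endoplasmic reticulum to misfolded protein. Hairpins were carried by lentivirus with puromycin in the medium, and all 8 arrays come from cells kept 24 h in 0.1% oxygen in medium without glucose, so no group shows the unstressed level. The untreated conditions of the study were not analysed here. The labels name a single XBP1 shRNA and no sequence, so loss of XBP1 and other actions of that hairpin cannot be told apart. The labels call the replicates biological, but nothing says whether they were separate infections or cultures. The p-values thus rest on the spread between these arrays alone, and that spread may be technical.

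KRAB zinc finger proteins bind DNA through arrays of C2H2 zinc fingers. Their KRAB domain recruits TRIM28 (KAP1), which brings in the histone methyltransferase SETDB1, HP1 proteins and histone deacetylases, and the bound DNA is packed into heterochromatin. Much of the family binds retrotransposons: ZNF91 represses SVA elements and ZNF93 represses older L1 elements. The genes arose by repeated tandem duplication, and those on 19p12 expanded in primates. As paralogs they resemble each other in sequence, both in their promoters and in the transcripts that array probes read.

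The promoters are printed first because the likeness of the genes is visible in them. RefSeq promoter sequences (GRCh38.p14, from 250 bases before to 50 bases after the annotated start) were found for 27 of the 35 listed genes and for 22 of the 26 measured ones. The 150 bases before the start are given for ZNF682, ZNF681, ZNF675 and ZNF43, which rose in T47D after knockdown, for ZNF91 and ZNF93 with their known retrotransposon targets, and for ZNF208, which was dim on every array. Capitals mark CCAAT or its reverse complement ATTGG.
ZNF682, chr19:20039506-20039655, minus strand: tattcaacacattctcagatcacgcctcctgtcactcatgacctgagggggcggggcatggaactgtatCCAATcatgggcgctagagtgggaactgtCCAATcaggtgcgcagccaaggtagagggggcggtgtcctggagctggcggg
ZNF681, chr19:23758892-23759041, minus strand: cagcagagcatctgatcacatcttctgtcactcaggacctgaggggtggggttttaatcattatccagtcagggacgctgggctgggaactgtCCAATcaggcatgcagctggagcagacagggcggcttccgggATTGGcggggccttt
ZNF675, chr19:23687213-23687362, minus strand: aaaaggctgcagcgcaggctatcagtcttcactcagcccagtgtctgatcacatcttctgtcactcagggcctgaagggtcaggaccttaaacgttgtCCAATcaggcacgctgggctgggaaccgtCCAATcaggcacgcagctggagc
ZNF43, chr19:21836183-21836332, minus strand: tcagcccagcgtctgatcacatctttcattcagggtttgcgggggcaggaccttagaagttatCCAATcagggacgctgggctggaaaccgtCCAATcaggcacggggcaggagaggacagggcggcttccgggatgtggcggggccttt
ZNF91, chr19:23395472-23395621, minus strand: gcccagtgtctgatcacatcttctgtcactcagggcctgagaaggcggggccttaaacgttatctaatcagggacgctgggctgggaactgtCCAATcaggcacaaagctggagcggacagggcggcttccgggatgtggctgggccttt
ZNF93, chr19:19900796-19900945, plus strand: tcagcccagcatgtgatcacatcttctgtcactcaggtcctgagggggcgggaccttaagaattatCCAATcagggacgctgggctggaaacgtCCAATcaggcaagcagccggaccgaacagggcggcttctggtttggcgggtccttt
ZNF208, chr19:22010944-22011093, minus strand: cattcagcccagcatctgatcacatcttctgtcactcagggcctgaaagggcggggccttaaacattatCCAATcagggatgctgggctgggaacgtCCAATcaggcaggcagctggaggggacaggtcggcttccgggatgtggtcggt

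All 27 promoters held CCAAT on either strand, the box known to be bound by NF-Y. The share was 49.5% among 378 promoters of other ZNF genes and 39.7% among 27305 genes in the table. Of the 27, 19 held at least 2 boxes (70.4%), against 18.3% of the other ZNF genes and 12.9% of all genes. The boxes also sat at a similar place: 24 of 27 (88.9%) had one centred 40 to 60 bases before the start, against 53 of 378 other ZNF genes and 6.62% of all genes. Many had another box further upstream, as the printed ZNF43, ZNF93 and ZNF208 sequences show. The 10-base word most shared by the 27, searched on both strands, was TCCAATCAGG, which contains a CCAAT. It was in 25 of 27 (92.6%), 8.73% of the other ZNF genes and 0.428% of all genes, and it was chosen by looking at the same 27 sequences.

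Matches to ACGTG, the core shared by hypoxia response elements and sites of XBP1, were in few of the promoters. ACGTG was in 2 of 27 promoters (7.41%), those of ZNF93 and ZNF257, against 25.4% of the other ZNF genes and 24.9% of all genes. CCACG was in 3 of 27 (11.1%), against 56.9% and 42.1%. The unfolded protein response element, 8 bases long, was in 0 of 27, against 0.794% of the other ZNF genes and 0.927% of all genes. These windows hold only the bases next to the start, and a match is not a binding site. Between pairs of the 27 promoters the median identity was 76.4% (quartiles 57.9% and 79.5%, 351 pairs), against 50.6% for other ZNF genes of chromosome 19 (16653 pairs). Genes share their origin, so these shares carry no test. Of the 22 measured genes with a promoter sequence, CCAAT was in 11 of 11 that rose in T47D and in 11 of 11 that did not pass the test there, and the shared word in 11 of 11 and 9 of 11.

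**Figure D1:**
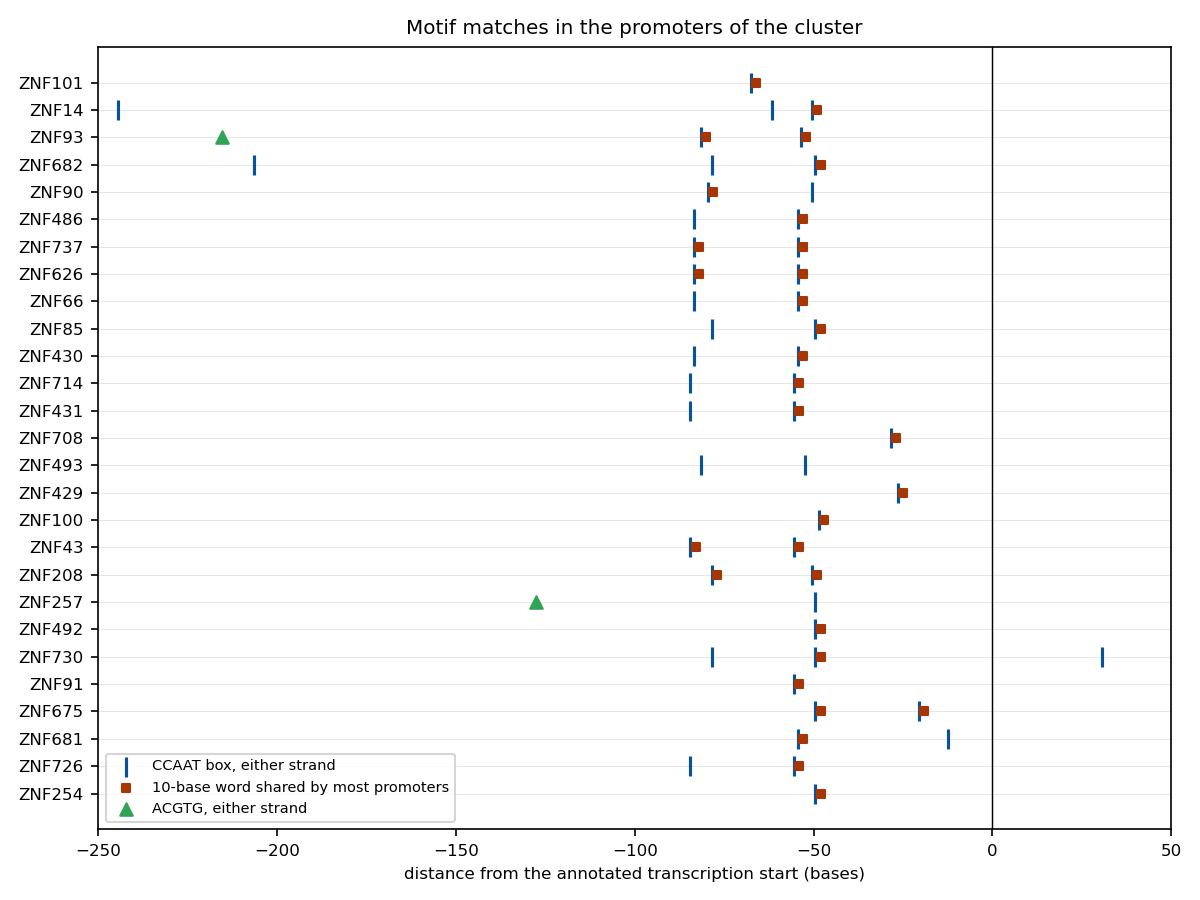
Motif matches in the 27 promoters, 1 row per gene in chromosomal order, plotted by distance in bases from the annotated start. Blue bars are CCAAT boxes, brown squares the shared 10-base word and green triangles ACGTG. In 24 of 27 rows a CCAAT box lies 40 to 60 bases before the start, and 2 rows hold ACGTG.

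XBP1, the targeted gene, checks the labels. Its log2 level was 7.13 and 6.69 in MDA-MB-231 shXBP1, against 10.83 and 10.69 in MDA-MB-231 shCtrl. It was 7.52 and 7.16 in T47D shXBP1, against 12.41 and 12.56 in T47D shCtrl. The log2 levels of 10 luminal markers summed to 69.9 to 74.0 in MDA-MB-231 and 128.8 to 131.8 in T47D. Those of 10 mesenchymal markers summed to 104.8 to 106.5 in MDA-MB-231 and 55.1 to 58.2 in T47D. CDH2, a mesenchymal cadherin, was low also in MDA-MB-231, with group means of 5.69 and 5.70, and SPARC had 5.18 in MDA-MB-231 shCtrl. Above the median of all probe sets (5.96) lay 4 of the 10 luminal markers in MDA-MB-231 and 3 of the 10 mesenchymal markers in T47D. KRT18, a luminal keratin, had 14.69 in MDA-MB-231 shXBP1 and 14.43 in shCtrl, against 14.56 in T47D shXBP1 and 15.36 in shCtrl. Leukocyte markers, 6 of 7 measured, summed to 32.7 to 34.0 in all groups. In every group 3 of the 6 lay above the median of all probe sets. Group means of PTPRC lay between 3.88 and 4.09, and those of CD79A between 7.06 and 7.28. Of 6 fibroblast markers, 4 lay above that median in every group, with COL1A1 between 9.12 and 9.97. The 3′ minus 5′ signal of ACTB, a sign of RNA breakdown, averaged 0.999 in MDA-MB-231 shXBP1, 1.256 in MDA-MB-231 shCtrl, 1.119 in T47D shXBP1 and 1.002 in T47D shCtrl (log2). For GAPDH it averaged 0.312, 0.302, 0.220 and 0.283 in the same order. Their part in the results was not tested. The median over all genes was 0.10 higher in MDA-MB-231 shXBP1 than in shCtrl, 0.04 higher in T47D shXBP1 than in shCtrl, and differed by -0.11 for MDA-MB-231 shCtrl against T47D shCtrl. In bulk RNA, fewer expressing cells and less RNA per cell cannot be told apart.

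Paralogs limit what a probe set can name. Of the 26, 12 were read by probe sets whose ID ends in _x_at and 1 by an _s_at set, classes that may bind more than one transcript. Signals of different probe sets depend on their probes, so no gene's level is compared with another's, and the median of all probe sets serves only to mark dim signals. Against that median (5.96 on the log2 scale), 8 genes had every group mean lower: ZNF90, ZNF99, ZNF100, ZNF208, ZNF257, ZNF429, ZNF431 and ZNF486. The files give no detection calls, and folds near such levels are compressed. ZNF208, for example, read 3.35 and 3.69 in MDA-MB-231 shXBP1, 3.44 and 3.44 in MDA-MB-231 shCtrl, 3.54 and 3.71 in T47D shXBP1, and 3.52 and 3.51 in T47D shCtrl. ZNF257 stayed between 3.35 and 3.46 and ZNF99 between 3.35 and 3.70 on all 8 arrays.

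Under the control hairpin most of the measured genes were lower in MDA-MB-231 than in T47D. Of the 26 genes, 16 were lower in MDA-MB-231 and 0 higher at a limma adjusted p under 0.05, where 25.2% of all genes were lower and 23.7% higher. The median difference was -0.70 on the log2 scale, against 0.01 for all genes. It was -0.48 with the mean over each gene's probe sets, and ranged from -0.8 to -0.48 with 1 array left out. Of the other ZNF genes, 154 of 399 were lower (38.6%) and 77 higher (19.3%), with a median of -0.12. With each array centred on its median over all genes, 14 of the 26 were lower and 0 higher, with a median of -0.59. The other ZNF genes then had 137 lower and 100 higher, and all genes 4353 lower and 5920 higher. By group mean, 7 of the 26 lay above the median of all probe sets in MDA-MB-231 shCtrl and 12 in T47D shCtrl. Without _x_at and _s_at probe sets, 10 of the 19 genes still measured were lower and 0 higher.

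ZNF91, the repressor of SVA elements, differed most. It read 4.43 and 4.33 in MDA-MB-231 shCtrl, against 8.83 and 8.93 in T47D shCtrl, 22.6-fold lower (log2 -4.50, SE 0.18, adjusted p = 4.4e-07). The MDA-MB-231 values lie under the median of all probe sets, so the fold may be understated. It holds for the probe set used: of the 6 other ZNF91 sets, 1 was lower (-1.92, adjusted p = 5.43e-05) and the others, from -0.22 to 0.39, had no call. ZNF626 read 5.88 and 6.30 in MDA-MB-231 shCtrl and 8.82 and 9.03 in T47D shCtrl, 7.15-fold lower (adjusted p = 1.3e-05), while its other 2 probe sets, dim on average, gave 0.05 and 0.03 with no call. ZNF93, the L1 repressor, read 5.63 and 5.70 in MDA-MB-231 shCtrl and 8.29 and 8.35 in T47D shCtrl, 6.28-fold lower (adjusted p = 2.06e-07). On the probe sets used for these 3 genes, every T47D array stood above every MDA-MB-231 array by more than the replicate spread. ZNF85 was 3.48-fold lower (adjusted p = 3.72e-05) and ZNF506 3.30-fold lower (adjusted p = 0.000758). Others had no call: ZNF430 had a difference of 0.13 (adjusted p = 0.537) and ZNF708 of -0.01 (adjusted p = 0.984).

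**Figure D2:**
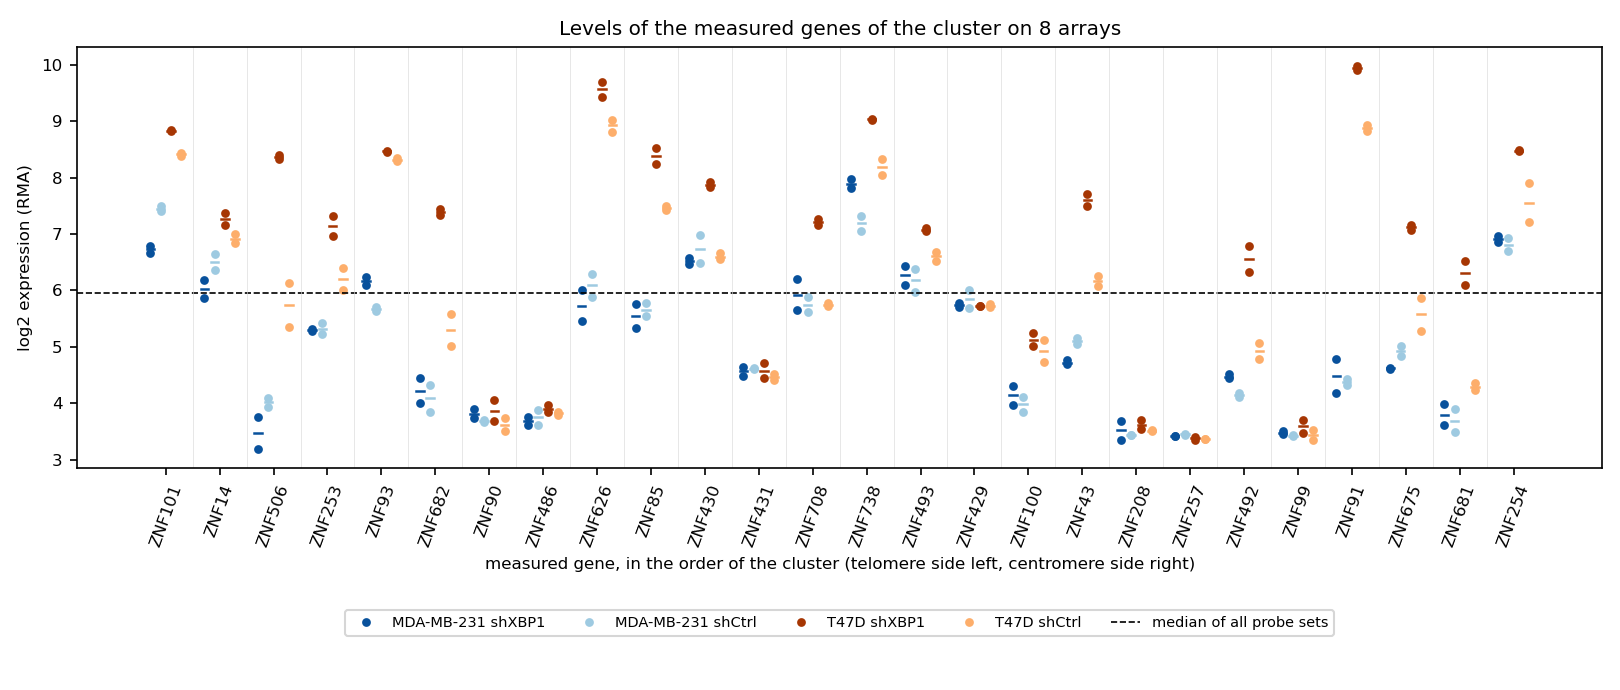
Log2 level of the 26 measured genes on each array, in chromosomal order. Points are arrays, short bars the means of 2 arrays, blue MDA-MB-231 and orange T47D, dark shXBP1 and light shCtrl, and the dashed line the median of all probe sets (5.96). ZNF91, ZNF626 and ZNF93 stand lower in MDA-MB-231, by 22.6-fold, 7.15-fold and 6.28-fold under shCtrl, and ZNF208, ZNF257 and ZNF99 stay low in all 4 groups.

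In T47D the majority of the measured genes were higher with the XBP1 hairpin than with the control hairpin. The cluster was picked out with earlier results of these arrays in view, so its counts describe and the tests refer to single genes among all 19775. Of the 26 genes, 14 were higher in shXBP1 and 0 lower at a limma adjusted p under 0.05, where 15.5% of all genes were higher and 13.5% lower. The median log2 fold change was 0.74, against -0.02 for all genes. Above 0 were 25 of 26, beside 9440 of 19775 genes and 306 of the 399 other ZNF genes. With the mean over each gene's probe sets the median was 0.42. The median over the 26 genes was 4.74 and 4.69 in MDA-MB-231 shXBP1 and 5.03 and 4.99 in MDA-MB-231 shCtrl, and 7.25 and 7.11 in T47D shXBP1 and 5.89 and 5.80 in T47D shCtrl. The same median over the other ZNF genes was 7.54 and 7.57 in T47D shXBP1, against 7.14 and 7.20 in T47D shCtrl. Of the 14, 9 rose by 2-fold or more and 3 by 4-fold or more, and no share of all genes at these cut-offs is given here. The 14 were ZNF43, ZNF85, ZNF91, ZNF101, ZNF253, ZNF254, ZNF430, ZNF492, ZNF506, ZNF675, ZNF681, ZNF682, ZNF708 and ZNF738. Without _x_at and _s_at probe sets, 19 of the genes were still measured and 8 of them rose. Those 8 included ZNF99 (0.55, adjusted p = 0.0072), which is dim and not among the 14. Of the 14, ZNF43, ZNF430, ZNF492, ZNF675 and ZNF708 were then not measured, and ZNF85 and ZNF254 did not pass. By group mean, 18 of the 26 lay above the median of all probe sets in T47D shXBP1, against 12 in T47D shCtrl.

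ZNF506 rose most. It read 8.41 and 8.33 in T47D shXBP1, against 6.13 and 5.36 in T47D shCtrl, a 6.15-fold rise (log2 2.62, SE 0.26, adjusted p = 0.000276). The shCtrl arrays differed by more than the shXBP1 arrays did, and the groups did not overlap. ZNF682 read 7.34 and 7.45 in shXBP1, against 5.02 and 5.58 in shCtrl, 4.28-fold higher (adjusted p = 0.000482). ZNF681 read 6.09 and 6.52 in shXBP1, against 4.24 and 4.35 in shCtrl, 4.04-fold higher (adjusted p = 0.000251). By group mean, T47D shCtrl levels of ZNF506, ZNF682 and ZNF681 lay under the median of all probe sets, so these folds may be understated. The same held for ZNF492, ZNF675 and ZNF708, given next. ZNF492 read 6.32 and 6.79 in shXBP1, against 4.78 and 5.07 in shCtrl, 3.10-fold higher (adjusted p = 0.000276).

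ZNF675, known as an inhibitor of TRAF6 signalling, read 7.17 and 7.07 in T47D shXBP1, against 5.28 and 5.87 in T47D shCtrl (2.91-fold, adjusted p = 0.000552). ZNF708 read 7.17 and 7.27 in shXBP1, against 5.77 and 5.73 in shCtrl (2.77-fold, adjusted p = 0.000653). ZNF43 read 7.50 and 7.71 in shXBP1, against 6.08 and 6.26 in shCtrl (2.71-fold, adjusted p = 9.33e-05). In all 3 the gap between the groups was wider than the gap between replicates. ZNF430 read 7.92 and 7.84 in shXBP1, against 6.55 and 6.66 in shCtrl (2.42-fold, adjusted p = 0.000716). ZNF492, ZNF675, ZNF708, ZNF43 and ZNF430 had only _x_at probe sets, which may bind more than one transcript. Their rises thus may not belong to the named gene alone.

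ZNF91 read 9.98 and 9.92 in T47D shXBP1, against 8.83 and 8.93 in T47D shCtrl (log2 1.07, SE 0.18, adjusted p = 0.00304). Another ZNF91 probe set rose too (1.88, adjusted p = 0.000296), while the remaining ZNF91 sets, from -0.26 to 0.18, had no call. ZNF93 did not pass the test, with 8.45 and 8.48 in shXBP1 and 8.29 and 8.35 in shCtrl (0.15, adjusted p = 0.283). The difference between ZNF91 and ZNF93 was not tested. A second ZNF93 probe set gave 0.54 (adjusted p = 0.00572), so the ZNF93 call differs by probe set. ZNF738 read 9.03 and 9.04 in shXBP1 and 8.34 and 8.05 in shCtrl (0.84, adjusted p = 0.00249). ZNF85, ZNF253 and ZNF254 rose by 0.93, 0.94 and 0.92. ZNF101 was the smallest rise of the 14, with 8.83 and 8.84 in shXBP1 and 8.39 and 8.44 in shCtrl (0.41, adjusted p = 0.00957), and its call was lost with the mean over its probe sets (0.18, adjusted p = 0.153). Without T47D shCtrl replicate 1, shXBP1 replicate 1 or shXBP1 replicate 2 its adjusted p was 0.0576, 0.0572 and 0.0623. ZNF626 missed the test with 9.70 and 9.43 in shXBP1 and 8.82 and 9.03 in shCtrl (0.64, adjusted p = 0.0597), but passed under 8 alternatives, with adjusted p from 0.0152 to 0.0477. ZNF431, one of the dim genes, read 4.44 and 4.72 in shXBP1 and 4.42 and 4.52 in shCtrl (0.11, adjusted p = 0.578).

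The genes that rose were spread over the cluster and not set apart in 1 block. The last 4 measured genes toward the centromere, ZNF91, ZNF675, ZNF681 and ZNF254, all rose, with 0.92 for ZNF254 the lowest. Between ZNF43 and ZNF91, ZNF208, ZNF257 and ZNF99 did not pass the test while ZNF492 rose. ZNF43, ZNF492 and ZNF675 had only _x_at probe sets, so other transcripts may add to their values here. ZNF99 passed with the mean over its probe sets (0.35, adjusted p = 0.0243) and without _x_at and _s_at sets (0.55, adjusted p = 0.0072).

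**Figure D3:**
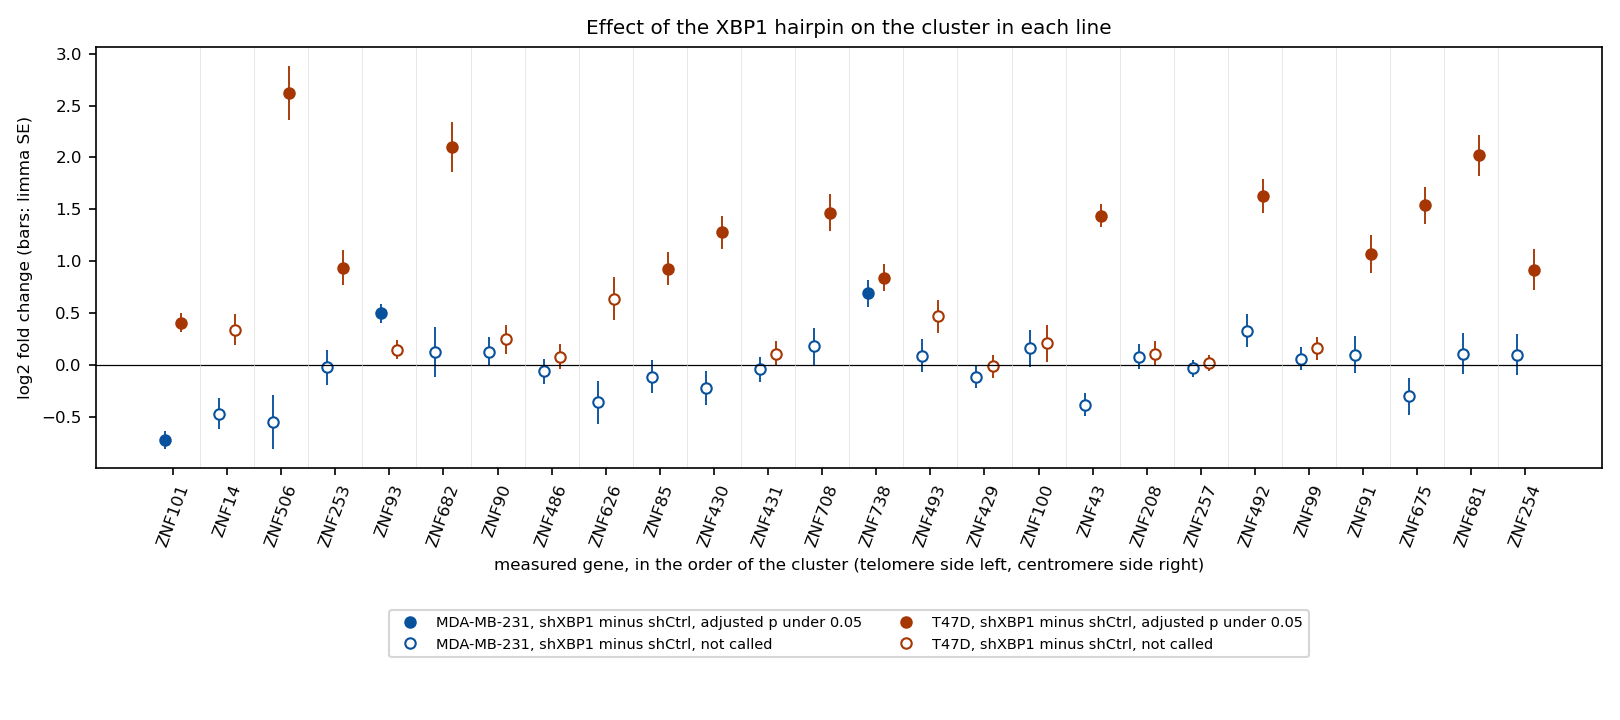
Log2 fold change of shXBP1 against shCtrl for each measured gene in chromosomal order, with bars of 1 limma SE, blue for MDA-MB-231 and brown for T47D. Filled points passed an adjusted p under 0.05. In T47D 14 of 26 points are filled and lie above 0, and in MDA-MB-231 3 are filled.

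In MDA-MB-231 few of the genes passed the test, at shares near those of all genes. By group mean, 7 of the 26 lay above the median of all probe sets in shXBP1 and 7 in shCtrl. Of the 26, 2 were higher (7.69%, ZNF738 and ZNF93) and 1 lower (3.85%, ZNF101) in shXBP1 at a limma adjusted p under 0.05. Over all genes 10.6% were higher and 6.68% lower. The median was 0.02, against 0.03 for all genes, and the range was -0.72 to 0.69. The median was -0.08 with centred arrays and also without shXBP1 replicate 1. With each array centred on its median over all genes, 2 were higher and 3 lower, and the split over all genes was 1499 higher and 2192 lower in place of 2090 higher and 1320 lower. ZNF101 read 6.79 and 6.67 in MDA-MB-231 shXBP1, against 7.49 and 7.41 in MDA-MB-231 shCtrl (log2 -0.72, SE 0.09, adjusted p = 0.00176). ZNF738 read 7.81 and 7.97 in shXBP1, against 7.06 and 7.33 in shCtrl (0.69, SE 0.13, adjusted p = 0.0118), and its adjusted p was 0.0656 without shCtrl replicate 1 and 0.0612 without shXBP1 replicate 2. ZNF93 read 6.24 and 6.10 in shXBP1, against 5.63 and 5.70 in shCtrl (0.50, SE 0.09, adjusted p = 0.0084). That rise rests on an _s_at probe set: without such sets the value was -0.27 (adjusted p = 0.304), and the mean over its probe sets was 0.09 (adjusted p = 0.544).

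The genes that rose most in T47D gave small values in MDA-MB-231. ZNF506 read 3.75 and 3.19 in MDA-MB-231 shXBP1, against 4.10 and 3.94 in shCtrl (-0.55, adjusted p = 0.207). ZNF682 read 4.0 and 4.45 in shXBP1 and 3.85 and 4.33 in shCtrl (0.13, adjusted p = 0.77). Both genes lie under the median of all probe sets there, where a change is compressed. ZNF430 lies above it: it read 6.47 and 6.57 in shXBP1 and 6.49 and 6.99 in shCtrl (-0.22, adjusted p = 0.405).

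The measured knockdown effect differed between the lines for 14 of the 26 genes. The test subtracts the T47D effect from the MDA-MB-231 effect, and it shares its arrays with the comparisons above. Of the 26 genes, 14 had a lower effect in MDA-MB-231 and 0 a higher one at a limma adjusted p under 0.05, where 11.8% of all genes were lower and 13.0% higher. The median difference was -0.89, against 0.05 for all genes, and it was -0.55 with the mean over each gene's probe sets. It was -3.17 for ZNF506 (SE 0.37, adjusted p = 0.000966), -1.96 for ZNF682 (adjusted p = 0.00474) and -1.91 for ZNF681 (adjusted p = 0.00236). ZNF675 gave -1.84 (adjusted p = 0.00185) and ZNF43 -1.81 (adjusted p = 0.000341). By group mean, ZNF506, ZNF682, ZNF681, ZNF675 and ZNF43 lay under the median of all probe sets in both MDA-MB-231 groups, where a change is compressed. The same held for ZNF492, ZNF708, ZNF85, ZNF91 and ZNF253, which also passed this test. Of the 14 genes that rose in T47D, 12 were among the 14; ZNF254 (-0.82, adjusted p = 0.0732) and ZNF738 (-0.15, adjusted p = 0.628) were not. ZNF14 (-0.81, adjusted p = 0.0283) and ZNF626 (-1.0, adjusted p = 0.0472) passed this test with no call in T47D. The count was 9 without T47D shXBP1 replicate 1 and 8 of 19 without _x_at and _s_at probe sets.

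Many ZNF genes outside the cluster rose in T47D as well. Of the 399 others, 155 were higher (38.8%) and 16 lower (4.01%) in T47D shXBP1, with a median of 0.27, against 53.8% higher and 0.74 for the cluster. Those elsewhere on chromosome 19 had 62 of 182 higher (34.1%, median 0.22), and those on other chromosomes 93 of 217 (42.9%, median 0.31). In MDA-MB-231, 39 of the 399 were higher (9.77%) and 37 lower (9.27%), with a median of -0.01. With centred arrays the split was 30 higher and 65 lower. For the difference between the lines, 120 of the 399 were lower (30.1%) and 23 higher (5.76%), with a median of -0.30, against -0.89 for the cluster. No test sets the cluster against the other ZNF genes.

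**Figure D4:**
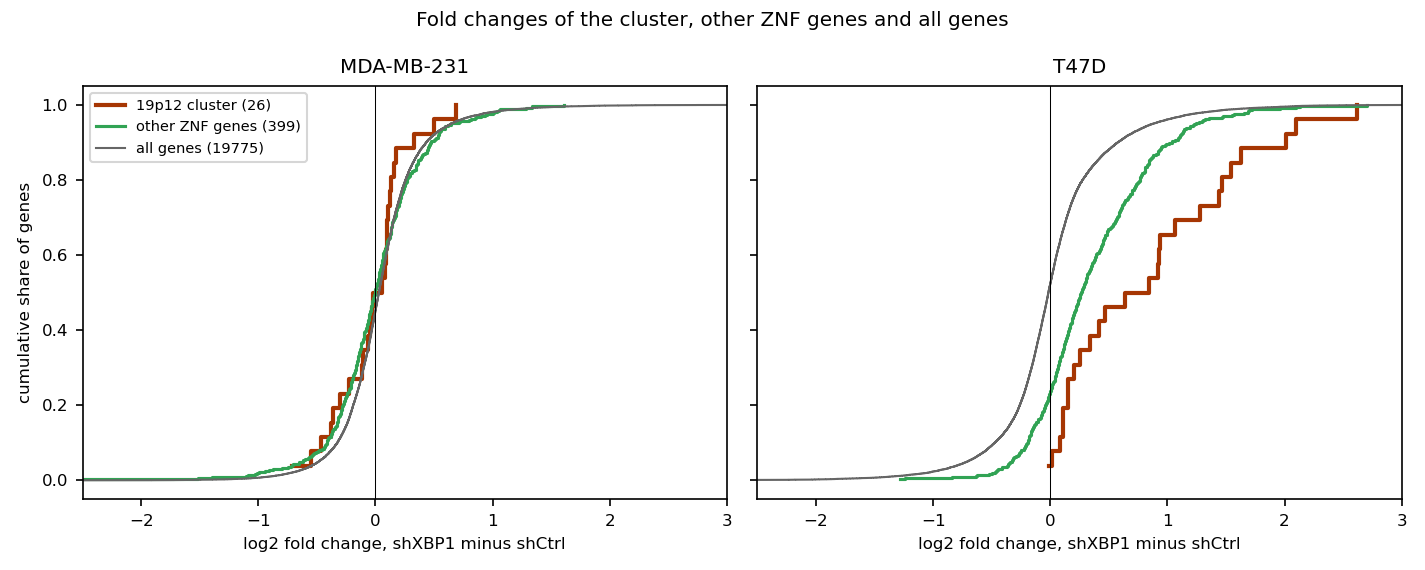
Cumulative share of genes by log2 fold change of shXBP1 against shCtrl, MDA-MB-231 left and T47D right, for the 26 genes of the cluster (brown), the 399 other ZNF genes (green) and all 19775 genes (grey). In T47D the median is 0.74 for the cluster, 0.27 for the other ZNF genes and -0.02 for all genes, and in MDA-MB-231 it is 0.02, -0.01 and 0.03. The axes leave out the most extreme of all genes.

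Genes for the proteins through which KRAB zinc fingers act gave calls in both directions. Of 27 measured members of a list of 29 corepressor genes, 3 were higher (11.1%) and 4 lower (14.8%) in T47D shXBP1, near the 15.5% and 13.5% of all genes, with a median of -0.03 beside -0.02. CBX5, an HP1 protein, fell (log2 -1.02, adjusted p = 0.00025), as did DNMT3A, a DNA methyltransferase (-0.90, adjusted p = 0.000558). TRIM28, the scaffold that the KRAB domain binds, read 9.51 and 9.58 in T47D shXBP1, against 10.17 and 10.31 in T47D shCtrl (-0.70, SE 0.09, adjusted p = 0.00105). TRIM28 read 11.04 and 10.93 in MDA-MB-231 shXBP1, against 10.93 and 10.97 in MDA-MB-231 shCtrl (0.03, adjusted p = 0.861), and the effects differed (0.73, adjusted p = 0.00587). SETDB1 had no call in either line, with 0.20 in MDA-MB-231 (adjusted p = 0.214) and 0.19 in T47D (adjusted p = 0.2). EHMT1, a histone H3 methyltransferase, fell in MDA-MB-231 (-0.58, adjusted p = 0.00993) and rose in T47D (0.77, adjusted p = 0.00133), and the effects differed (-1.35, adjusted p = 0.000881). TRIM24, a relative of TRIM28, rose in T47D (0.85, adjusted p = 0.000292), but without _x_at and _s_at probe sets it read -0.07 (adjusted p = 0.828). In MDA-MB-231, 6 of the 27 were higher and 6 lower (22.2% each way, where 10.6% and 6.68% of all genes were), among them DNMT3B (0.92, adjusted p = 0.00228), HDAC2 (0.89, adjusted p = 0.00202) and CBX5 (-0.67, adjusted p = 0.00369). SUV39H2 rose there too (0.70, adjusted p = 0.00446), but its call was lost with the mean over probe sets (0.31, adjusted p = 0.123).

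Further probe sets of the same genes give a partial check, on the same RNA. The 26 genes had 58 single-symbol probe sets, and 32 of them, from 16 genes, had not been used. Of these 32, 11 were higher and 0 lower in T47D, and 0 were higher and 1 lower in MDA-MB-231, each at a limma adjusted p under 0.05 over 41091 probe sets. Of those 41091, 13.2% were higher and 11.0% lower in T47D, and 7.8% higher and 8.03% lower in MDA-MB-231. The lower one was of ZNF253 (-0.91, adjusted p = 0.0109), which rose by 2.27 in T47D where the used set gave 0.94. A second set of ZNF682, an _s_at set with a mean level of 4.26, gave 1.67 in T47D. One of ZNF430, an _x_at set with a mean level of 4.55, gave 1.66. Rising sets of other classes were of ZNF91, ZNF99, ZNF253, ZNF254 and ZNF506. The rest of the 11 were _x_at or _s_at sets, which may bind more than one transcript. Other unused sets did not follow: the second ZNF681 set gave -0.16 (adjusted p = 0.672), and 2 of the 4 ZNF506 sets gave -0.04 and 0.03. Among genes on sets that may cross-hybridise, 8 of 13 rose in T47D, and among those on the other sets 6 of 13.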

How the data were processed

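The authors deposited log2 expression values for 54675 probe sets on 8 one-colour Affymetrix arrays. Per the submitters' processing notes, they were made by RMA with affy 1.30.0. RMA subtracts background, normalizes by quantiles and summarises probes on the log2 scale. The set of arrays that went through RMA together is not stated in the labels. The values, 2.75 to 15.6, were used unchanged. Replicates correlated at 0.996 to 0.998.

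The platform annotation gave 1 symbol for 41091 probe sets, several for 1801 (not used) and none here for 11777, and 6 control probe sets with a symbol were left out. For each of 19775 genes the single-symbol probe set brightest on average across the 8 arrays was used, with no filter on dim genes. In R 4.3.3 with limma 3.58.1 (lmFit, eBayes) 1 model held all 4 group means, with 4 residual degrees of freedom, 7.61 after moderation. Tests were two-sided, with Benjamini-Hochberg adjustment over all genes and calls at an adjusted p under 0.05. An exact permutation of 2 against 2 arrays cannot go below 0.333. The number of arrays limits precision: the median SE was 0.119 for a knockdown effect and 0.168 for the difference between lines. The fit was tested on simulated data.

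The members, lists and alternatives were chosen with earlier results of these data known. The text names up to 8 called members per knockdown comparison whose shXBP1 and shCtrl arrays do not overlap, 5 for the difference, 5 each way between lines, the 3 highest and 3 lowest by mean level, ZNF91, ZNF93, ZNF43, ZNF675 and ZNF431, and of the corepressors TRIM28, SETDB1 and up to 4 called ones per knockdown comparison. Others are named in lists or after their values were seen. Protein sequences were not used here. Alternatives changed the probe set rule, dim-gene filters, normalization, variance model, arrays in the fit and replicate block. Deviations from the group means of same-numbered arrays correlated at -0.069 in MDA-MB-231 and 0.00223 in T47D. Same-numbered arrays thus showed no shared deviation, but these values cannot tell whether the samples were handled in pairs.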

Additional observations from a re-analysis of the deposited data

Results flagged for a closer look

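For 14 genes of the cluster the effect of the XBP1 hairpin differed between MDA-MB-231 and T47D by the limma test of the difference itself. The log2 effect in MDA-MB-231 minus that in T47D was -3.17 for ZNF506, -1.96 for ZNF682, -1.91 for ZNF681, -1.84 for ZNF675 and -1.81 for ZNF43. It was -1.5 for ZNF430, -1.30 for ZNF492, -1.29 for ZNF708, -1.13 for ZNF101 and -1.04 for ZNF85. It was -1.0 for ZNF626, -0.97 for ZNF91, -0.96 for ZNF253 and -0.81 for ZNF14. For ZNF101 each line passed its own test with opposite signs, -0.72 in MDA-MB-231 and 0.41 in T47D, and the T47D call was lost under some alternatives. By group mean, ZNF506, ZNF682, ZNF681, ZNF675 and ZNF43 lay under the median of all probe sets in both MDA-MB-231 groups, where a change is compressed. The same held for ZNF492, ZNF708, ZNF85, ZNF91 and ZNF253. ZNF626 lay under that median in MDA-MB-231 shXBP1 only, and ZNF430, ZNF101 and ZNF14 lay above it in both groups.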

How the results depend on the processing

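Leaving out _x_at and _s_at probe sets gave fewer calls in the cluster: 8 genes of 19 in T47D, 8 in the difference between lines and 10 in MDA-MB-231 shCtrl against T47D shCtrl. The line comparison also gave 10 when only genes with a mean above the median of all probe sets were kept. Fewer genes were tested under both settings. For the corepressors, leaving out those sets gave 7 calls of 20 genes in the difference (4 higher, 3 lower). Between lines it gave 13 of 20 (8 higher, 5 lower). With all sets, 7 of 27 were higher and 5 lower in the difference, where 13.0% and 11.8% of all genes were. Between lines, 14 of 27 were higher and 6 lower, where 23.7% and 25.2% of all genes were. The mean over probe sets gave 11 of 27 in T47D (5 higher, 6 lower), in place of 3 higher and 4 lower. Leaving out _x_at and _s_at sets turned TRIM24 in T47D to -0.07 (adjusted p = 0.828) and ZNF93 in MDA-MB-231 to -0.27 (adjusted p = 0.304). In MDA-MB-231, centring each array gave 5 cluster calls, and fitting that line alone gave 44 calls among other ZNF genes. The cause was not tested.

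Leaving out 1 array at a time, cluster calls ranged from 2 to 3 in MDA-MB-231, 12 to 16 in T47D, 9 to 13 in the difference (9 without T47D shXBP1 replicate 1) and 13 to 16 between lines. Calls among other ZNF genes ranged from 48 to 69 in MDA-MB-231 (48 without shCtrl replicate 1, 50 without shXBP1 replicate 1). With the replicate number as a block in limma, the cluster had 4 calls in MDA-MB-231, 15 in T47D, 13 in the difference and 17 between lines. ZNF43 in MDA-MB-231 passed with the block (-0.38, adjusted p = 0.039), as it did under 4 other settings (adjusted p from 0.0199 to 0.0441), and the block changed the call of no other gene named by the rule. The arrays carry no detection calls, so a fold near or under a log2 level of 5.96 has limited precision.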
